A study of Mus musculus with 15 samples.

Results

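The genes of the cytosolic heat shock proteins, 10 of the 39179 genes counted, were followed in quadriceps muscle of 15 mice. They are the inducible Hsp70 genes Hspa1a and Hspa1b, the constitutive Hsp70 gene Hspa8, its partners Hsph1 and Dnaja1, the inducible Hsp90 gene Hsp90aa1, and the small heat shock protein genes Hspb1, Hspb6, Hspb7 and Cryab. They were chosen by name, and all 10 were tested in every comparison. RNA-seq counts were available for 8 mice aged 3 mo, of which 4 were wild-type and 4 V338Y, and for 7 mice aged 19 mo, of which 3 were wild-type and 4 V338Y. All were on the C57BL/6 background, and each sample was a separate animal. V338Y mice are homozygous for an amino acid exchange in the mitochondrial ribosomal protein Mrps5 that raises misreading by the mitochondrial ribosome, and the exchange is carried in the germline and not limited to muscle. The comparisons ask how the genes differ between 3 mo and 19 mo muscle within each genotype, how they differ between genotypes at each age, and whether the age difference depends on genotype.

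Heat shock proteins of the cytosol keep other proteins folded. Hsp70 proteins bind exposed hydrophobic stretches in cycles of ATP hydrolysis, J-domain proteins such as Dnaja1 start the hydrolysis, and exchange factors such as Hsph1 release the nucleotide and end the cycle. Hsp90 takes over clients such as kinases and steroid receptors, and small heat shock proteins hold unfolding proteins without ATP, in muscle mainly along the contractile filaments. Heat shock factor 1 induces many of these genes through heat shock elements, inverted repeats of the unit GAA in their promoters.

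The promoters of the inducible Hsp70 genes are shown because the counts of both genes, which share reads, varied together between mice. Those of Hspb1 and Hsph1 are shown because they carry the same kind of element. RefSeq windows on GRCm38.p6, from 250 bases before to 50 after a start site, were found for 7 of the 10 genes, in 11 windows. The stretches below are given 5′ to 3′ in the direction of the gene, and the capitals mark matches to GAANNTTC or TTCNNGAA in the first 3 and to TTCNNGAANNTTC in the last.
Hspa1a, chr17:34972207-34972306, minus strand: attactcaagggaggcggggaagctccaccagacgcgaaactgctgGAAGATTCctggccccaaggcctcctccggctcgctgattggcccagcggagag
Hspa1b, chr17:34959289-34959388, minus strand: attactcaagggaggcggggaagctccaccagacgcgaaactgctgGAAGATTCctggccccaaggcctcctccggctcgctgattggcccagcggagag
Hspb1, chr5:135887769-135887868, plus strand: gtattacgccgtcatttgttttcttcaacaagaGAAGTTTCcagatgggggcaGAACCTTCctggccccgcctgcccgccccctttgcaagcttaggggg
Hsph1, chr5:149636280-149636307, minus strand: ctgcagaTTCTGGAAAGTTCtcctcagt
The Hspa1a and Hspa1b stretches differed at 0 of 100 positions, and their whole windows at 4 of 300. Their element begins 104 bases before the start site, and the 2 of Hspb1 begin 117 and 97 bases before it. A match to the 2-unit form GAANNTTC or TTCNNGAA was searched on both strands. It was present in 7 of the 11 windows, from 6 of the 7 genes, all but Hspb7. Of all 32851 promoter windows, 15.1% held it. The 3-unit form GAANNTTCNNGAA or TTCNNGAANNTTC, which contains the 2-unit form, was present in both windows of Hsph1, downstream of its start sites, and in 0.603% of all windows. A match describes the letters of the window and not a bound factor.

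The libraries held 8250653 to 18968132 gene counts each. Levels are given as CPM, counts scaled to a common library size with TMM factors. A gene was called where edgeR's quasi-likelihood test gave a Benjamini-Hochberg adjusted p under 0.05. The counts behind a member's value ran from 10 for Hspa1b to 17752 for Hspa8, so counting error weighs most on the inducible Hsp70 genes. Transcripts of the skeletal muscle list, such as Acta1 and Ckm, summed to 166028 to 321535 CPM in every mouse. The 3 mo mice expressed Y-linked transcripts, with Ddx3y at 166.4 to 200.7 CPM in all 8, while Xist, the transcript of the inactive X chromosome, was at 501.6 to 626.4 CPM in all 7 mice of 19 mo and at most at 0.5862 CPM at 3 mo. The methods describe 3 mo mice as female. Age and sex cannot be told apart in the comparisons of age below, and in bulk tissue fewer cells of a type cannot be told apart from less RNA per cell.

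Per kilobase of transcript, Hspa8 was the most abundant of the 10 genes in 3 mo wild-type muscle, with a median of 472.2 CPM per kb, followed by Cryab at 214.4. The small heat shock protein genes Hspb6 and Hspb1 came next at 59.63 and 49.78 CPM per kb, with overlapping ranges over mice. Hsph1 followed at 30.51 and Hsp90aa1 at 16.42, again with overlapping ranges. Hspb7 had a median of 9.373 and Dnaja1 of 5.74 CPM per kb. Both inducible Hsp70 genes were lowest, Hspa1a at 1.353 and Hspa1b at 0.9556 CPM per kb, with overlapping ranges. At 19 mo the order changed at 1 place in the wild-type mice, where Hspb7 at 41.18 CPM per kb stood next to Hspb1 at 39.34, with overlapping ranges, and above Hsph1 at 18.28.

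**Figure D1:**
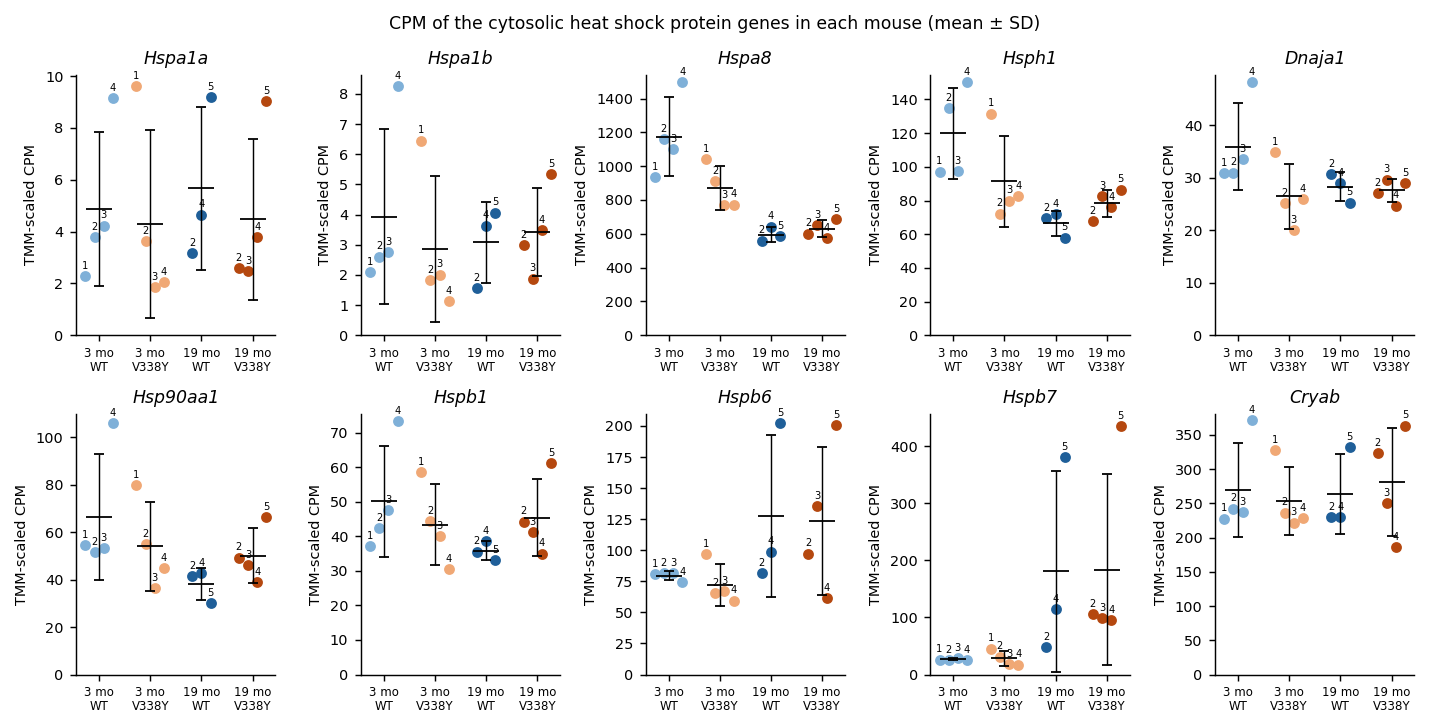
CPM of each of the 10 genes (y axis, linear from 0) in each of the 15 mice, by age and genotype; points carry the mouse number, and horizontal bars with whiskers are the mean ± SD. Hspa8 lies between 560 and 689 CPM in all 19 mo mice and at 768.4 CPM or more in all 3 mo mice, while Hspb7 is above every 3 mo mouse in all 19 mo mice. Over all tested genes, the ages did not overlap within a genotype for 22.4% (wild-type) and 22.6% (V338Y) in the lower direction. In the higher direction the shares were 20.8% and 19.5%.

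With age, 4 of the 10 genes differed in wild-type muscle. Hspa8, Hsph1 and Hsp90aa1 fell and Hspb7 rose. Among all 13657 genes tested, 17.8% were called lower and 18.3% higher at 19 mo. In V338Y muscle 2 of the 10 genes differed, with Hspa8 lower and Hspb7 higher, beside 22.5% of 13868 genes called lower and 24.4% called higher. Wild-type mice had a median log2 fold change of -0.32 over the 10 genes and of 0.0186 over all tested genes, and V338Y mice of 0.0882 and 0.0718. Other transcripts differed between the ages too. The median summed CPM of the skeletal muscle list was 295072 at 3 mo and 234046 at 19 mo in wild-type mice, and 302991 and 191893 in V338Y mice. The wild-type ranges of this sum overlapped, at 261284 to 303767 and 227018 to 285533 CPM. Of the 8 genes in the list, 2 were called lower in wild-type and 4 in V338Y mice, and 0 were called higher. In each genotype 2 of the 8 had a positive fitted log2 fold change. Sums of 5 endothelial genes had medians of 153 and 263.7 CPM in wild-type and of 153.7 and 310.5 CPM in V338Y mice, and those of 10 immediate early genes 149.8 and 284.1 CPM, and 141.3 and 203.1 CPM. Of 11 core clock genes, 5 were called higher and 4 lower at 19 mo in wild-type mice, and 6 and 4 in V338Y mice. The mean of Dbp, one of them, went from 70.46 to 8.375 CPM in wild-type and from 66.41 to 7.344 CPM in V338Y mice. The methods do not give the time of day at which muscle was taken. The part of all these transcripts and of sampling time in the age differences of the 10 genes was not tested.

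Hspa8 (ENSMUSG00000015656, chr9:40800984-40810087 on GRCm38, plus strand) encodes Hsc70, the Hsp70 of unstressed cells. It was counted at 936.8, 1162, 1100 and 1495 CPM in wild-type mice 1 to 4 at 3 mo and at 560, 642 and 585.3 CPM in wild-type mice 2, 4 and 5 at 19 mo. The V338Y mice 1 to 4 at 3 mo had 1041, 911.2, 768.4 and 772.1 CPM, and V338Y mice 2 to 5 at 19 mo had 600.8, 652.7, 575.4 and 689 CPM. Within a genotype, 22.4% (wild-type) and 22.6% (V338Y) of all tested genes were lower in every 19 mo mouse than in any 3 mo mouse. For Hspa8, every 19 mo mouse of either genotype was below every 3 mo mouse. The log2 fold change with age was -0.956 ± 0.16 (SE) in wild-type mice, a level 1.94-fold lower (adjusted p = 0.00215), and -0.445 ± 0.13 in V338Y mice, 1.36-fold lower (adjusted p = 0.0169). The call in V338Y mice was lost without V338Y mouse 2 of 3 mo (-0.422, adjusted p = 0.0508).

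Hsph1 (ENSMUSG00000029657, chr5:149614287-149636376, minus strand) encodes Hsp110, the exchange factor whose promoter element is shown above. Wild-type mice had 97.15, 134.7, 97.34 and 150.2 CPM at 3 mo and 69.5, 71.78 and 58.03 CPM at 19 mo. These groups did not overlap, as for 22.4% of all tested genes in that direction. The change was -0.83 ± 0.17 on the log2 scale, 1.78-fold lower (adjusted p = 0.0061). In V338Y mice the values were 131.6, 72.17, 80 and 82.41 CPM at 3 mo and 68, 82.8, 75.89 and 86.48 CPM at 19 mo. These groups overlapped, since only V338Y mouse 1 stood above the 19 mo mice, and the log2 fold change of -0.197 (95% interval -0.582 to 0.187) was not called (adjusted p = 0.367).

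Hsp90aa1 (ENSMUSG00000021270, chr12:110690605-110702728, minus strand), the inducible Hsp90, was at 54.59, 51.71, 53.14 and 106 CPM in 3 mo and at 41.43, 42.84 and 30.23 CPM in 19 mo wild-type mice. The groups did not overlap, as for 22.4% of all tested genes in that direction. Mouse 4 of 3 mo stood far above the other wild-type mice. The log2 fold change was -0.773 ± 0.26 (adjusted p = 0.0441). This call was lost when any of the 3 wild-type mice of 19 mo was left out, with an adjusted p of 0.071 without mouse 2, 0.0743 without mouse 4 and 0.118 without mouse 5. V338Y mice had 79.73, 55.02, 36.27 and 44.97 CPM at 3 mo and 49.23, 46.12, 38.94 and 66.23 CPM at 19 mo, with overlap and a log2 fold change of -0.0798 (95% interval -0.595 to 0.435, adjusted p = 0.794).

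Dnaja1 (ENSMUSG00000028410, chr4:40722150-40737149, plus strand) encodes a J-domain partner of Hsc70. Its levels were 30.89, 30.96, 33.59 and 48.24 CPM in 3 mo wild-type mice and 30.74, 28.95 and 25.28 CPM in 19 mo wild-type mice. The groups did not overlap, but by a margin between 30.89 and 30.74 CPM, and the log2 fold change of -0.319 (95% interval -0.685 to 0.0466) was not called (adjusted p = 0.152). Over all tested genes, 22.4% had every 19 mo wild-type mouse below every 3 mo one. In V338Y mice the levels of Dnaja1 ran from 20.02 to 34.88 CPM at 3 mo and from 24.7 to 29.65 CPM at 19 mo (log2 fold change 0.0857, adjusted p = 0.655).

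The inducible Hsp70 genes Hspa1a (ENSMUSG00000091971, chr17:34969190-34972156, minus strand) and Hspa1b (ENSMUSG00000090877, chr17:34956436-34959238, minus strand) are neighbours, each with 1 exon. Of the 100-base windows of the Hspa1a transcript, 47.1% occur unchanged in that of Hspa1b, and 68.3% of those in its coding part do. Reads that lie wholly in shared sequence fit both genes and were divided between them by the authors' counting, so the split between the genes is uncertain. Per the methods the reads were longer than 100 bases, so these shares of windows can exceed the share of reads that fit both genes. Hspa1a was at 2.278, 3.799, 4.232 and 9.158 CPM in wild-type mice 1 to 4 at 3 mo, and at 9.614, 3.642, 1.843 and 2.055 CPM in V338Y mice 1 to 4. At 19 mo it was at 3.167, 4.655 and 9.184 CPM in wild-type mice 2, 4 and 5, and at 2.596, 2.477, 3.784 and 9.029 CPM in V338Y mice 2 to 5. Each of the 4 groups thus held 1 mouse at 9.029 to 9.614 CPM and others at 4.655 CPM or less.

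Hspa1b was highest in the same mouse as Hspa1a in every group, with 8.251 CPM in wild-type mouse 4 and 6.449 CPM in V338Y mouse 1 at 3 mo, and 4.064 and 5.353 CPM in both mice numbered 5 at 19 mo. The other mice had 1.141 to 3.636 CPM. Since shared reads were divided between the genes, their values are not independent measures. The coefficient of variation within groups was 55.3 to 84.9% for Hspa1a and 42.3 to 84.9% for Hspa1b, against 7.05 to 20% for Hspa8. Neither gene was called with age. The log2 fold changes were 0.238 (95% interval -0.817 to 1.29) for Hspa1a and -0.321 (-1.47 to 0.825) for Hspa1b in wild-type mice, and 0.0651 (-1.2 to 1.33) and 0.241 (-0.877 to 1.36) in V338Y mice. With the counts of both genes added they were 0.016 in wild-type (adjusted p = 0.982) and 0.147 in V338Y mice (adjusted p = 0.832).

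Of the small heat shock protein genes, Hspb7 (ENSMUSG00000006221, chr4:141420779-141425311, plus strand), which is expressed mainly in heart and skeletal muscle, had the largest age difference of the 10 genes. It was at 26.15, 25.47, 29.29 and 25.75 CPM in 3 mo wild-type mice and at 48.63, 114 and 380.7 CPM in wild-type mice 2, 4 and 5 at 19 mo. V338Y mice had 45.43, 31.34, 18.85 and 17.46 CPM at 3 mo and 106.5, 98.19, 95.41 and 435.2 CPM at 19 mo. All 19 mo mice were above all 3 mo mice, as within a genotype for 20.8% (wild-type) and 19.5% (V338Y) of all tested genes. The mice numbered 5 were far above the rest. The log2 fold change was 2.79 ± 0.55 in wild-type mice, a 6.9-fold rise (adjusted p = 0.00498), and 2.72 ± 0.55 in V338Y mice, a 6.59-fold rise (adjusted p = 0.00334). Without mouse 5 of 19 mo it was 1.62 in wild-type (adjusted p = 0.00312) and 1.86 in V338Y mice (adjusted p = 0.000613).

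Hspb6 (ENSMUSG00000036854, chr7:30552178-30555443, plus strand), or Hsp20, was at 80.92, 81.82, 81.62 and 74.35 CPM in 3 mo wild-type mice and at 81.3, 98.91 and 202.4 CPM at 19 mo. In V338Y mice it was at 96.84, 65.27, 66.85 and 59.47 CPM at 3 mo and at 97.36, 135.4, 61.25 and 200.9 CPM at 19 mo. The groups overlapped in both genotypes, with the mice numbered 5 highest. The log2 fold changes were 0.70 ± 0.26 (adjusted p = 0.0652) and 0.803 ± 0.30 (adjusted p = 0.0528). Both were called with DESeq2, at adjusted p-values of 0.0223 and 0.0212. Without wild-type mouse 5 of 19 mo the log2 fold change was 0.187 (adjusted p = 0.22) and without wild-type mouse 2 it was 0.941 (adjusted p = 0.0145), and in V338Y mice it was 0.48 without mouse 5 of 19 mo (adjusted p = 0.117) and 1.02 without mouse 4 (adjusted p = 0.0098).

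Hspb1 (ENSMUSG00000004951, chr5:135887919-135889563, plus strand), or Hsp25, was at 37.09, 42.28, 47.63 and 73.26 CPM at 3 mo and 35.53, 38.69 and 33.16 CPM at 19 mo in wild-type mice, which overlapped. Its log2 fold change was -0.461 (95% interval -0.928 to 0.00725, adjusted p = 0.111). V338Y mice had 58.62, 44.38, 40.04 and 30.48 CPM at 3 mo and 44.24, 41.1, 34.96 and 61.07 CPM at 19 mo (log2 fold change 0.0907, adjusted p = 0.732). Cryab (ENSMUSG00000032060, chr9:50751325-50756636, plus strand) encodes αB-crystallin, which protects desmin and other filaments of muscle. It was at 227.7, 242.2, 236.9 and 371.5 CPM at 3 mo and 229.7, 230.2 and 331.8 CPM at 19 mo in wild-type mice, and at 327.9, 236.4, 221.8 and 228.5 CPM at 3 mo and 323.9, 250.3, 186.6 and 363.4 CPM at 19 mo in V338Y mice. All 4 ranges overlapped, with log2 fold changes of -0.00847 (95% interval -0.457 to 0.44) and 0.175 (-0.277 to 0.628).

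**Figure D2:**
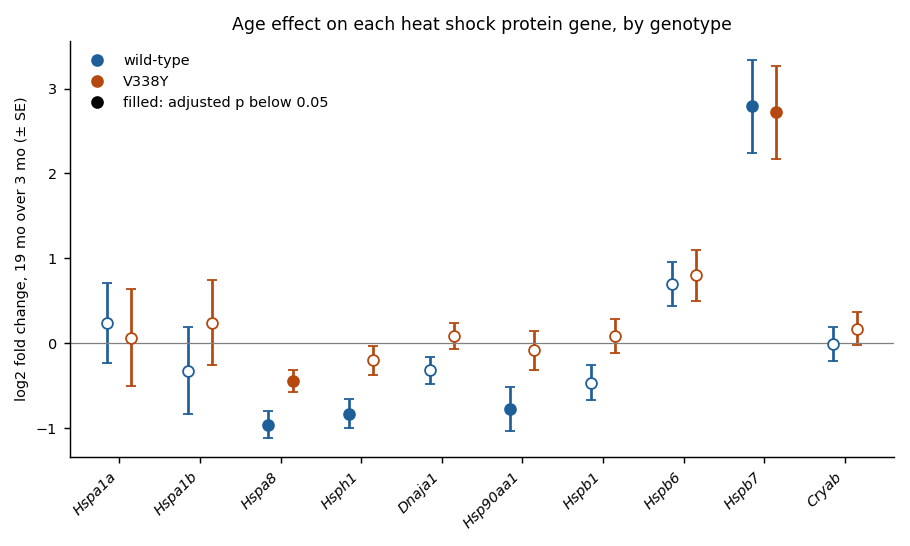
Log2 fold change of each gene between 19 mo and 3 mo (y axis) in wild-type (blue) and V338Y mice (orange), with bars of 1 SE on each side; filled points are called at an adjusted p under 0.05. Hspb7 lies at 2.79 and 2.72, and Hspa8 is below 0 and filled in both genotypes.

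Between genotypes, 0 of the 10 genes were called at 3 mo by edgeR, and 0 by DESeq2, beside 0.0750% of 13333 genes called by edgeR, where 1293 genes had an unadjusted p under 0.05. In 9 of the 10 the level was lower in V338Y mice, with a median log2 fold change of -0.252 against -0.00255 over all tested genes. Unadjusted p-values under 0.05 were reached by 2 of them, Hspa8 at -0.433 ± 0.14 (adjusted p = 0.41) and Dnaja1 at -0.438 ± 0.18 (adjusted p = 0.487). The ranges of Hspa8 overlapped only between wild-type mouse 1 at 936.8 CPM and V338Y mouse 1 at 1041 CPM, and Dnaja1 in V338Y mouse 1, at 34.88 CPM, was above wild-type mice 1 to 3. The exception in direction was Hspb7, at 0.0904, and at -0.239 without V338Y mouse 1. Without wild-type mouse 4 the fold changes of Hspa1a, Hspa1b, Hsp90aa1, Hspb1 and Cryab changed sign, to 0.36, 0.264, 0.0208, 0.0331 and 0.101.

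At 19 mo edgeR and DESeq2 called 0 of the 10 genes as well, and 0 had an unadjusted p under 0.05 in edgeR. Of all 13833 genes tested, edgeR called 0.0434% and DESeq2 called 62, and 1235 had an unadjusted p under 0.05 in edgeR. The 3 genes nearest to the threshold had log2 differences of 0.406 for Hsp90aa1 (95% interval -0.0398 to 0.851), 0.249 for Hsph1 (-0.0319 to 0.531) and 0.353 for Hspb1 (-0.0593 to 0.766), with adjusted p-values of 0.574, 0.578 and 0.586. For Hspa8 the interval was narrow, -0.208 to 0.39 around 0.0909, and for Dnaja1 it was -0.272 to 0.224 around -0.0239. Hspb7 could not be compared with any precision, since its log2 interval around 0.0263 ran from -1.71 to 1.77.

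The dependence of the age difference on genotype was tested as an interaction over all 15 mice. None of the 10 genes passed in edgeR or DESeq2, and 0% of 14128 genes did in edgeR, where 1361 had an unadjusted p under 0.05. Of the 10, 2 were among these, Hspa8 with an interaction of 0.501 ± 0.20 (adjusted p = 0.48) and Hsph1 with 0.622 ± 0.27 (adjusted p = 0.491), both positive because the level fell less with age in V338Y mice. The calls of Hsph1 and Hsp90aa1 with age in wild-type but not in V338Y mice are therefore not shown to differ between genotypes. For Hspb7 the interaction was -0.0796 (95% interval -1.88 to 1.72).

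Within groups, the same few mice were high for most of the 10 genes. Wild-type mouse 4 of 3 mo was the highest of its group for 8 genes, all but Hspb6 and Hspb7, and V338Y mouse 1 of 3 mo was the highest of its group for all 10. At 19 mo V338Y mouse 5 was the highest of its group for 9 genes, all but Dnaja1. Wild-type mouse 5 was the highest of its group for Hspa1a, Hspa1b, Hspb6, Hspb7 and Cryab, and the lowest for Hsp90aa1, Hsph1, Dnaja1 and Hspb1. After subtraction of group means, log2 CPM of Hspa1a and Hspa1b correlated over the 15 mice at r = 0.902, Hsp90aa1 and Dnaja1 at 0.918, Hspa8 and Hspb1 at 0.882, and Hspb6 and Hspb7 at 0.852. Hspb7 correlated less with Hsp90aa1 (0.25), Hsph1 (0.115) and Dnaja1 (0.0885). Without that subtraction, Hspa8 and Hspb7 gave -0.612 against 0.371 with it, as the first value also holds the opposite age differences of both genes. These correlations are descriptions of 15 libraries in which all genes share the same RNA and depth. Hspa1a and Hspa1b also share reads that were divided between them, so their correlation is not that of independent measures.

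**Figure D3:**
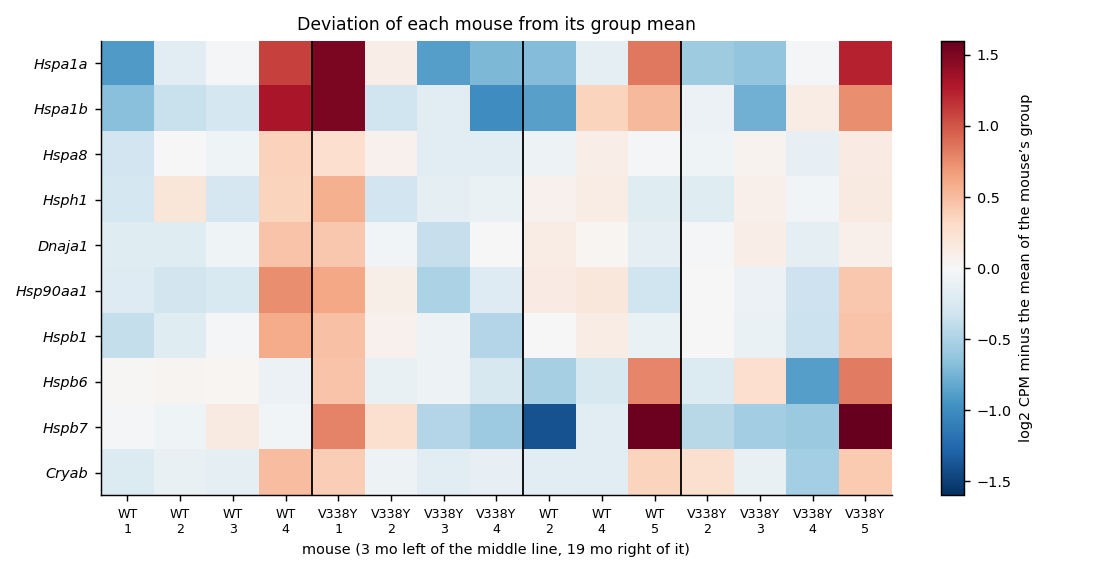
Log2 CPM of each gene (rows) in each of the 15 mice (columns) minus the mean of the mouse's group, with red for higher and blue for lower; black lines separate 3 mo wild-type, 3 mo V338Y, 19 mo wild-type and 19 mo V338Y mice. The columns of 3 mo wild-type mouse 4, 3 mo V338Y mouse 1 and 19 mo V338Y mouse 5 are red for at least 8 of the 10 genes.

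Other transcripts stood apart in these mice as well. The summed CPM of 5 endothelial genes was 186.2 in wild-type mouse 4 and 180.3 in V338Y mouse 1 of 3 mo, against 138.8 to 160.1 in the other 3 mo mice, and the summed CPM of 8 macrophage genes was 284.7 and 384.9 against 196.2 to 239.4. The skeletal muscle list was lowest of its group in wild-type mouse 4, at 261284 CPM against 289572 to 303767 CPM. In V338Y mouse 1 it was at 294688 CPM, barely below V338Y mouse 4 at 295017 CPM. The fast-fiber sum of V338Y mouse 1, 151646 CPM, was the highest of its group. None of these markers was at 0 in any mouse. Wild-type mouse 5 of 19 mo had the highest endothelial sum of its group, at 364.5 CPM, and the highest sum of immediate early genes, at 397.5 CPM. V338Y mouse 5 of 19 mo had 654.2 CPM of the neutrophil list against 4.194 to 28.58 CPM in the others of its group, and 847.3 CPM of the erythroid list against 160.8 to 432.1 CPM, while its endothelial sum of 357.5 CPM was below that of V338Y mouse 2, at 371.3 CPM. The part of all these transcripts in the levels of the 10 genes was not tested. Of 14126 genes ranked, those most like the sum of Hspa1a and Hspa1b over the 15 mice were Tpra1 (r = 0.923), 2010111I01Rik (0.852) and Hgh1 (0.804), and Tpra1 also led after subtraction of group means (0.968), followed by Pacsin2 (0.908) and Tln1 (0.887). Most like Cryab were Emcn (0.879) and Tie1 (0.846), both genes of endothelial cells, and the actin regulator Wdr1 (0.844), and after subtraction Podxl (0.962), Wdr1 (0.931) and Oas3 (0.92).

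The rise of Hspb7 with age stood beside transcripts of slow muscle fibers. Myh7, Myl2, Tnni1 and 5 other slow-fiber genes summed to 58.94 to 72.95 CPM in 3 mo wild-type and 49.88 to 175.4 CPM in 3 mo V338Y mice. At 19 mo the sums were 69.68, 427.5 and 799.3 CPM in wild-type mice 2, 4 and 5, and 129.1, 58.84, 133.9 and 2706 CPM in V338Y mice 2 to 5. Hspb7 followed the same order as these sums in the 3 old wild-type mice, at 48.63, 114 and 380.7 CPM. This order was not particular to slow-fiber genes. The endothelial sums, at 228.8, 263.7 and 364.5 CPM, and the immediate early sums, at 172.8, 284.1 and 397.5 CPM, had it too, while the fast-fiber sums did not. In 19 mo V338Y mice the order differed, since mouse 4 had a higher slow-fiber sum than mouse 2 but lower Hspb7, at 95.41 against 106.5 CPM. In wild-type mice all 8 slow-fiber genes were called higher at 19 mo and in V338Y mice 0 of 8, although all 8 fitted log2 fold changes were positive there (median 2.56). In V338Y mice these values rest on mouse 5, since the median sum was 113.9 CPM at 3 mo and 131.5 CPM at 19 mo, and the group medians of Myl2 (13.48 and 9.923 CPM), Myl3 (10.58 and 4.038 CPM), Tnni1 (4.251 and 2.941 CPM), Tnnc1 (2.81 and 2.693 CPM) and Tnnt1 (5.151 and 4.987 CPM) were lower at 19 mo. V338Y mouse 3 had the lowest sum of its age and still had Hspb7 at 98.19 CPM, above all 3 mo mice. None of the 8 genes was at 0 in any mouse, and how far fiber type contributes to Hspb7 or Hspb6 was not tested.

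**Figure D4:**
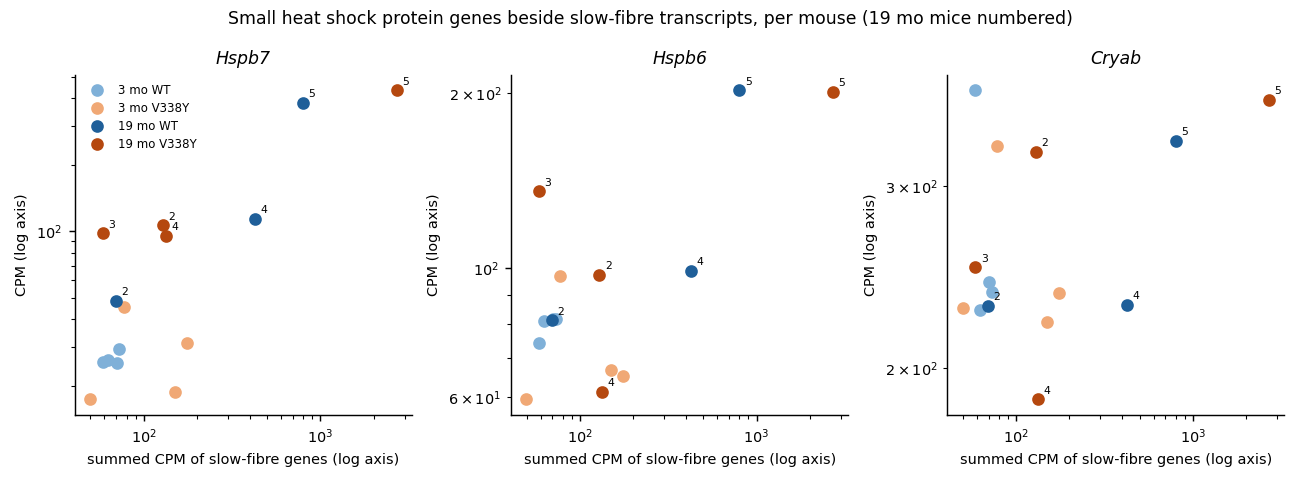
CPM of Hspb7, Hspb6 and Cryab (y axes, log scale) against the summed CPM of 8 slow-fiber genes (x axes, log scale) in each mouse, with the 19 mo mice numbered. The mice numbered 5 are at the top right for Hspb7 and Hspb6, and 19 mo V338Y mouse 3, at 58.84 on the x axis, has Hspb7 at 98.19 CPM.

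Of 71 other chaperone genes listed, 67 were tested. In wild-type mice 30 fell, 3 rose and 34 were not called (49.3% called, median log2 fold change -0.31). In V338Y mice 36 fell, 8 rose and 23 were not called (65.7% called, median -0.364). Among all tested genes, 17.8% were called lower and 18.3% higher in wild-type mice, and 22.5% and 24.4% in V338Y mice. The counts of the single lists below are to be read beside these shares. Between genotypes and for the interaction 0 of the 67 were called by edgeR. The lists were chosen with earlier results of these data known.

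The chaperonin TRiC, which folds actin and tubulin, had the same direction throughout. All 8 tested subunits fell with age in both genotypes, with log2 fold changes of -0.702 in wild-type (adjusted p = 0.00232) and -0.483 in V338Y mice (adjusted p = 0.00233) for Cct6a, and of -0.437 (adjusted p = 0.00322) and -0.496 (adjusted p = 0.00286) for Cct2. Leaving out any 1 mouse kept all 8 called. With a block by mouse number, 3 of 8 were called in wild-type and 6 of 8 in V338Y mice. That block compares the ages only within numbers found at both, 2 and 4 in wild-type and 2, 3 and 4 in V338Y mice. A lower count under the block cannot be told apart from this loss of mice. Prefoldin, which hands actin and tubulin to TRiC, had 2 of 6 subunits lower in wild-type and 5 of 6 in V338Y mice, among them Pfdn1 in both (log2 fold changes -0.651, adjusted p = 0.00546, and -0.961, adjusted p = 1.66e-04).

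Of 16 genes of Hsp90 and its cochaperones beside Hsp90aa1, 11 fell in wild-type and 12 in V338Y mice, and 1 rose in V338Y mice. Hsp90ab1, the constitutive Hsp90, went from 948 ± 63 CPM (SD, n = 4) to 669.5 ± 57.43 CPM (n = 3) in wild-type mice and from 868.7 ± 86.8 to 639.3 ± 36.2 CPM (n = 4 each) in V338Y mice, with log2 fold changes of -0.48 and -0.414. Fkbp4, Stip1, which links Hsp70 to Hsp90, and Ahsa1, which activates the Hsp90 ATPase, fell, with log2 fold changes of -0.81, -0.926 and -0.834 in wild-type and -0.547, -0.588 and -0.669 in V338Y mice. Smyd1, a myosin cochaperone of muscle, had -0.651 and -0.958.

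Among 13 other Hsp70 genes and exchange factors, 4 fell and 2 rose in wild-type mice, and 3 fell and 4 rose in V338Y mice. The one with the lowest adjusted p in both genotypes was Bag3, a cochaperone that joins Hsp70 to small heat shock proteins in the turnover of filamin. Wild-type mice had 30.49 ± 3.494 CPM (SD, n = 4) of Bag3 at 3 mo and 79.83 ± 13.99 CPM (n = 3) at 19 mo (log2 fold change 1.41, adjusted p = 1.98e-04). V338Y mice had 26.57 ± 7.81 and 74.77 ± 19.99 CPM (n = 4 each, log2 fold change 1.52, adjusted p = 5.65e-04). Bag3 thus rose like Hspb7 and unlike Hspa8. Of 11 other J-domain genes, 2 fell and 1 rose in wild-type mice, and 2 fell and 2 rose in V338Y mice, Dnajb1 among them (log2 fold change 0.652, adjusted p = 0.00653).

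Of 4 other small heat shock protein genes tested, 0 were called in wild-type mice and 1, Hspb2, in V338Y mice (log2 fold change -0.444, adjusted p = 0.0256), and Hspb8, the partner of Bag3, was not called (-0.331 and -0.268). Of 4 genes of heat shock factors and their binding protein, 1 fell in wild-type mice, and 1 fell and 1 rose in V338Y mice. Hsbp1, which binds heat shock factor 1, had log2 fold changes of -0.358 (adjusted p = 0.0417) and -0.638 (adjusted p = 3.77e-04), and the wild-type call was lost without any 1 of 5 mice, numbers 4 and 5 of 19 mo and 1, 3 and 4 of 3 mo. Hsf4 rose in V338Y mice (0.584, adjusted p = 0.0218), a call lost without any 1 of mice 3 and 4 of 19 mo and 3 and 4 of 3 mo. Hsf1 was at 20.54 ± 2.692 CPM in 3 mo and 23.64 ± 2.016 CPM in 19 mo wild-type mice (log2 fold change 0.224, adjusted p = 0.167) and Hsf2 was not called either (-0.0168, adjusted p = 0.921). A list of 14 known targets of heat shock factor 1 outside the 10 genes repeats genes counted above, such as Stip1, Ahsa1, Fkbp4 and Bag3. Of the 14 targets, 7 fell and 1 rose in wild-type mice and 8 fell and 2 rose in V338Y mice. They include Hspe1 (log2 fold change -1.23 in wild-type and -1.0 in V338Y mice) and Hspd1 (-0.876 and -0.625), whose proteins fold proteins inside mitochondria, and Bag3, the gene that rose in wild-type mice.

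**Figure D5:**
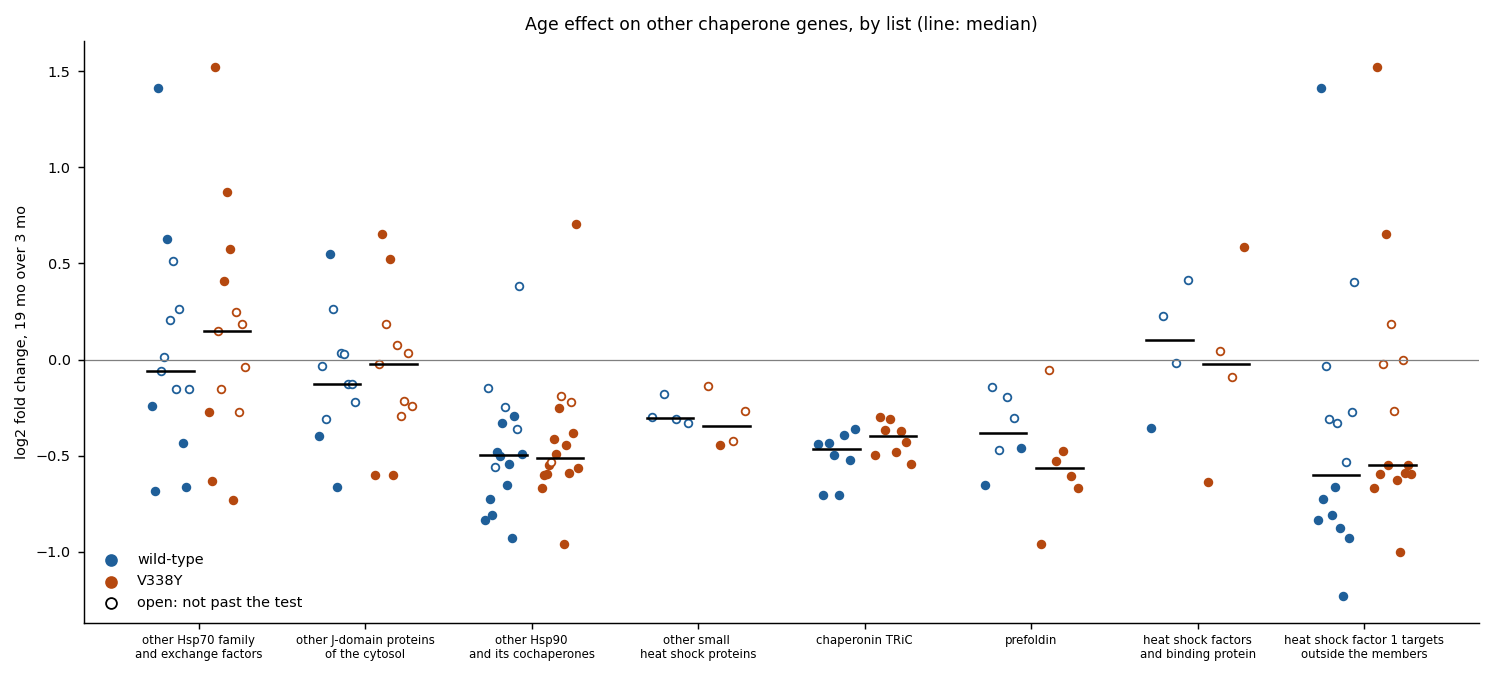
Log2 fold change between 19 mo and 3 mo (y axis) of each tested gene of 8 chaperone lists (x axis), in wild-type (blue) and V338Y mice (orange); filled points are called at an adjusted p under 0.05, and black lines are medians. All 8 TRiC subunits are filled and below 0 in both genotypes, and the point above 1 in the Hsp70 list and in the list of heat shock factor 1 targets is Bag3.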

How the data were processed

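Stranded mRNA libraries of quadriceps muscle, 1 from each of 15 mice, were read from a single end. Per the methods and the submitters' processing notes, the authors made base calls with CASAVA 1.8 and bcl2fastq 1.8.4, aligned reads with STAR 2.4.2a and estimated counts with RSEM against an Ensembl annotation of the mouse genome. The methods and the processing notes name different mouse builds, and positions here are those of GENCODE M21 on GRCm38. RSEM divides a read that fits several genes between them. The deposited values are expected counts per gene, given as whole numbers and not scaled for depth or length, with 8250653 to 18968132 per mouse. How they were rounded is not given in the sources used here. Labels gave the age and genotype of each mouse, and neither a date nor a batch. Of 105 pairs of files, 0 were identical.

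A gene was tested if 50% or more of the mice in a compared group had 10 or more of its counts. TMM factors were computed, and groups were compared with edgeR 4.0.16 (glmQLFit and glmQLFTest, two-sided) in R 4.3.3. The fit used the groups compared, or all 15 mice for the interaction, with Benjamini-Hochberg adjustment over all tested genes. Standard errors and 95% intervals come from the same fit. CPM per kb divides by the length of the longest principal transcript. Likeness was Pearson's r of log2(CPM + 0.5). The code was tested on simulated data. The alternatives were RLE and upper-quartile factors, DESeq2 1.42.0, filterByExpr or no filter, leaving out the 10 most counted genes, a fit of all 15 mice, a block by mouse number, the sum of Hspa1a and Hspa1b, and each mouse left out. The leaving out of pairs of mice was chosen after seeing the data. The members, the lists and the tests were chosen with earlier results of these data known. Every member was tested in every comparison and named in those of age, while only some were named for genotype and the interaction. Other chaperone genes were named by the smallest adjusted p within their list with a few more named for their role, and heat shock factors after their values were seen.

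Mouse numbers recur between groups, and the labels do not say what they mark. At 19 mo same-numbered wild-type and V338Y mice deviated together over all genes (r = 0.131, 0.24 and 0.401), although V338Y mouse 3 and wild-type mouse 2, with different numbers, correlated more (0.469). A possible pairing entered only as the alternative with a block by mouse number. The values given above for genotype at 19 mo come from the fit without it. The block changed no call of the 10 genes in that comparison. The numbers did not pair the groups at 3 mo or across ages.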

Additional observations from a re-analysis of the deposited data

Results flagged for a closer look

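A mouse stood apart from the other 3 of its group, by Dixon's criterion, in 8 of 30 groups of 4 examined, where chance gives about 1 in 20. Wild-type mouse 4 of 3 mo was high for Hspa1b (8.25 CPM, next 2.75), Hsp90aa1 (106 CPM, next 54.6), Dnaja1 (48.2 CPM, next 33.6) and Cryab (371 CPM, next 242), and low for Hspb6 (74.4 CPM, next 80.9). V338Y mouse 1 of 3 mo was high for Hspa1b (6.45 CPM, next 2.01) and Cryab (328 CPM, next 236). V338Y mouse 5 of 19 mo was high for Hspb7 (435 CPM, next 107). The genes are not independent, since they vary together within groups.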

How the results depend on the processing

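The count of the 10 genes called was 4 with age in wild-type mice and 3 to 4 without any 1 mouse. In V338Y mice it was 2, and 1 to 3 without any 1 mouse, with 1 when V338Y mouse 2 of 3 mo was left out. With genotype and for the interaction it was 0 in every alternative. With age, Hspb7 in both genotypes and Hspa8 and Hsph1 in wild-type mice were called in every alternative. Under the replicate block by mouse number, Hspa8 in V338Y mice lost its call (-0.399, adjusted p = 0.0757) and Hspb6 gained one (0.574, adjusted p = 0.0393), the block kept counts of 4 and 2 members, and 3 of 8 TRiC genes were called in wild-type mice. Hspb6 was also called without a filter (adjusted p = 0.0294 in wild-type and 0.0438 in V338Y mice), with DESeq2 in both genotypes, without wild-type mouse 2 of 19 mo (0.0145), and in V338Y mice with filterByExpr (0.0475), in the fit of all 15 mice (0.0454), without V338Y mouse 4 of 19 mo (0.0098) and without V338Y mouse 1 of 3 mo (0.0444). The block by mouse number compares ages only within numbers found at both ages. Calls lost under the block cannot be told apart from this loss of mice. The causes were not tested.

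Over all genes, the block called 2229 genes with age in wild-type mice against 4940, where only numbers 2 and 4 occur at both ages. It called 110 against 6 with genotype at 19 mo and 28 against 0 for the interaction. DESeq2 called 66 genes with genotype at 3 mo, 62 at 19 mo and 26 for the interaction, and no filter 33, 14 and 5, against 10, 6 and 0. Without a filter the median log2 fold change of all genes with age in V338Y mice was 0.252 against 0.0718.

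Some log2 fold changes that were not called changed sign, and none was called after the change. Under the block these were Hspa1a with age in wild-type mice (-0.631), Hsp90aa1 with age in V338Y mice (0.0158), Hspb7 with genotype at 3 mo (-0.00738), and Hspa1a (0.102) and Hspb7 (0.266) for the interaction. With Hspa1a and Hspa1b added, they were Hspa1b with age in wild-type mice (0.016) and with genotype at 19 mo (-0.119), and Hspa1a for the interaction (0.113). Without a filter it was Hspb7 with genotype at 19 mo (-0.00352). Without wild-type mouse 4 and V338Y mouse 1 of 3 mo they were Hspb7 at 3 mo (-0.253) and Hspa1a (0.151) and Hspb7 (0.271) for the interaction, and without both mice numbered 5 of 19 mo Hspb6 at 19 mo (0.14) and Hspb7 for the interaction (0.234).

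With 1 mouse left out, the ranges that crossed 0 were, with age in wild-type mice, -0.3 to 0.712 for Hspa1a, -0.58 to 0.31 for Hspa1b and -0.22 to 0.183 for Cryab. With age in V338Y mice they were -0.563 to 0.858 for Hspa1a, -0.0919 to 1.05 for Hspa1b, -0.232 to 0.155 for Hsp90aa1, -0.294 to 0.0138 for Hsph1, -0.0299 to 0.235 for Dnaja1 and -0.0755 to 0.257 for Hspb1. With genotype at 3 mo they were -0.941 to 0.36 for Hspa1a, -1.2 to 0.264 for Hspa1b, -0.544 to 0.0208 for Hsp90aa1, -0.382 to 0.0331 for Hspb1, -0.239 to 0.249 for Hspb7 and -0.234 to 0.101 for Cryab. With genotype at 19 mo they were -0.919 to 0.23 for Hspa1a, -0.153 to 0.429 for Hspa1b, -0.0928 to 0.0352 for Dnaja1, -0.368 to 0.471 for Hspb6, -0.841 to 1.19 for Hspb7 and -0.0397 to 0.307 for Cryab. For the interaction they were -0.793 to 0.631 for Hspa1a, -0.0705 to 1.38 for Hspa1b, -0.212 to 0.603 for Hspb6, -0.923 to 1.08 for Hspb7 and -0.00259 to 0.379 for Cryab.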
